A study of Mus musculus with 4 samples.

Results

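Leydig cells of the mouse testis were selected on measured values: a cell was counted as a member when at least 3 of the 6 steroidogenic and Leydig markers Cyp17a1, Cyp11a1, Insl3, Hsd3b1, Fabp3 and Lhcgr were detected and the 6 together gave at least 20 of every 10000 of its unique molecular identifiers (UMIs, the count of captured RNA molecules). Of 57727 cells kept from 57837 barcodes, 1510 were members. The study measured droplet single-cell transcriptomes of dissociated whole testis with 10x 3′ chemistry, to compare the cell types of the testis under 2 diets. Testes of mice fed a high-fat diet gave 2 libraries, HFD 1 and HFD 2, and those of mice fed a normal diet gave the other pair, ND 1 and ND 2. The strain, the age of the mice, the composition of the diets and their duration are not given in the sources used here, and all groups share the enzymatic digestion of the testis. Whether the libraries stem from different mice is not stated in the labels, so p-values measure only the spread between these libraries, which may be technical.

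Leydig cells lie between the seminiferous tubules and make testosterone. Luteinizing hormone acts through its receptor, Lhcgr, and cAMP, the steroidogenic acute regulatory protein Star moves cholesterol into the mitochondria, and Cyp11a1, the 3-beta-hydroxysteroid dehydrogenases, Cyp17a1 and Hsd17b3 turn it into testosterone. The cholesterol comes from the cell's own synthesis, from lipoproteins and from stored esters, and Insl3, a peptide hormone, is another product of the same cells.

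The label was checked against genes that the gate did not use. Levels are given in CPM, a gene's UMIs scaled to a fixed total per library or cell set. The 15 genes of at least 200 CPM in members that were most enriched over all other kept cells were Hsd3b6, Prlr, Hsd17b3, Lcn2, Ephx1, Serpina3g, Ass1, Bhmt, Akr1cl, Agt, Sult1e1, Fxyd1, Klk1b21, Ptgds and Tmem35a, with 498-fold to 805-fold higher CPM. Hsd3b6, a 3-beta-hydroxysteroid dehydrogenase, stood at 1589 CPM in members against 1.98 in the other cells, and Hsd17b3, which makes testosterone from androstenedione, at 430 against 0.598. Prlr, the prolactin receptor, stood at 885 CPM and Ptgds, a prostaglandin D synthase, at 10880. These ratios describe cells chosen by a set of correlated genes and carry no test.

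Markers of several other cell types were found in members. The Sertoli markers Clu, Ctsl and Aard were high (1046, 368 and 112 CPM), but Sox9, Rhox8 and Cldn11 stood at 0.123, 4.21 and 0.164, and 313 members also met the same kind of gate on the 6 Sertoli markers. Among macrophage markers, 47 members met the gate, and the 6 genes summed to 186 and 259 CPM in HFD 1 and HFD 2 and to 202 and 137 in ND 1 and ND 2. Kit, on the list for spermatogonia, stood at 115 CPM in members against 2.66 in the other cells, and Mylk, on that for smooth muscle, at 107 against 16.5. These genes do not stand for their lists. The median ratio of members over other cells was 0.298 for 6 spermatogonia markers and 0.479 for 5 peritubular and smooth muscle markers. The fibroblast list summed to 55.3 against 10.9. Endothelial markers summed to 7.17 to 9.38 CPM and lymphocyte markers to 10.2 to 12.9, both below the other cells (means of 13.4 and 23.4). Spermatid and spermatocyte markers were present in members at 0.306 and 0.400 of their level in the other cells.

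The median depth of members was 6709 and 5984 UMIs under HFD and 5906 and 5825 under ND (each time library 1, then library 2), and their UMIs summed to 2026033 to 3054520 per library. Scrublet called 166 of the members doublets (11.0%), against 4.71% of all kept cells; by library the shares were 3.51% and 15.3% under HFD and 12.1% and 11.6% under ND. Called doublets were kept. Of 87 genes followed across the settings, 19 lost their call without them, and those reported here are named beside their results. Pairs of libraries shared 42 to 65 cell barcodes, and no shared barcode was a member in both. Replicate libraries differed by more than counting noise, with a chi-square per degree of freedom of 1.48 in HFD and 1.96 in ND.

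Members made up 2.10% of kept cells in HFD 1 (285 cells, exact Clopper-Pearson 95% interval 1.87 to 2.36), 2.18% in HFD 2 (313 cells, 1.95 to 2.43), 2.94% in ND 1 (448 cells, 2.68 to 3.22) and 3.18% in ND 2 (464 cells, 2.90 to 3.48). Both HFD libraries lay below both ND libraries, with means of 2.14% ± 0.054 (SD, n = 2) and 3.06% ± 0.173 (SD, n = 2) and a log2 ratio of -0.51. The intervals cover counting error only, the gate used genes that may themselves differ between the diets, and a share says nothing of the number of cells in a testis, so this is a description without a test. The gate genes themselves overlapped between the diets except Cyp17a1 and Hsd3b1, and the gate used these values. Of the genes tested below, 43.9% did not overlap. Cyp17a1, which makes androgens from progestagens, stood at 3557 and 3185 CPM in the members of HFD 1 and HFD 2 and at 4148 and 4147 in ND 1 and ND 2. Hsd3b1 stood at 884 and 771 against 750 and 758.

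**Figure D1:**
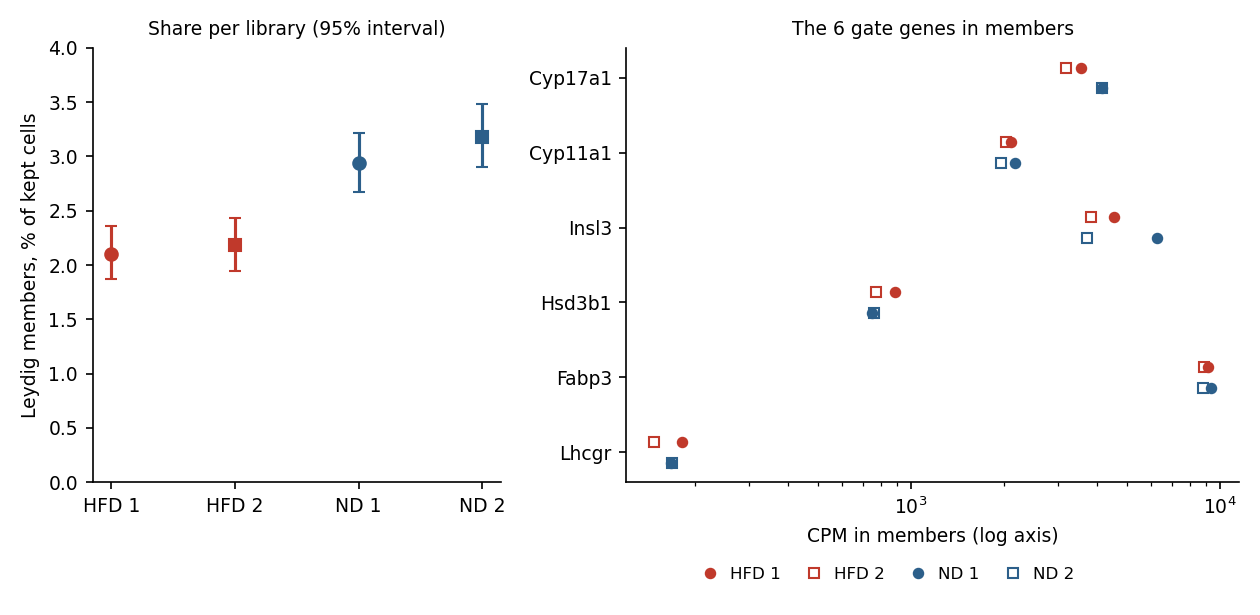
Left, Leydig members as a percent of kept cells in each library, with exact 95% intervals; right, the level of each gate gene in members in CPM on a log axis, circles for replicate 1 and squares for replicate 2, red for HFD and blue for ND. Both HFD shares (2.10% and 2.18%) lie below both ND shares (2.94% and 3.18%); the ND points of Cyp17a1, Hsd3b1 and Lhcgr nearly coincide.

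Members differed among themselves in how strongly they carried the gate genes. All 6 genes were detected in 686 members and only 3 in 99. The sum of the 6 genes was 20 to 40 per 10000 UMIs in 123 members, 40 to 100 in 184, 100 to 300 in 890 and over 300 in 313. At the edge of the gate, 34 members had sums of 20 to 25, and 33 cells with at least 3 genes had sums of 15 to 20 and stayed outside. The weakest group had a median of 2743 UMIs and 20.3% doublet calls, and the group of 40 to 100 had 45.7% doublet calls, whereas the strongest had a median of 6530 UMIs and no doublet call. Sums under 100 were found in 26.7% and 22.7% of the members of HFD 1 and HFD 2 and in 14.5% and 20.5% of those of ND 1 and ND 2.

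Steroid genes outside the gate followed that order. Star averaged 179, 448, 1467 and 1651 CPM over the 4 groups from weakest to strongest, and Hsd17b3 averaged 93.3, 158, 494 and 606. Within the strongest group, Star stood at 1268 and 1260 CPM in HFD 1 and HFD 2 and at 2060 and 2016 in ND 1 and ND 2. In the group of 100 to 300 it stood at 1128 and 1162 against 1859 and 1719, so both HFD libraries lay below both ND libraries within each of the larger groups as well.

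The diets were compared on UMIs summed over the members of each library, and levels below are CPM after edgeR's TMM scaling. In edgeR's quasi-likelihood test with Benjamini-Hochberg adjustment, 362 of 13063 tested genes (2.77%) passed an adjusted p of 0.05, 148 higher (1.13%) and 214 lower (1.64%) in HFD. The median log2 change over all tested genes was -0.0048, and 81 called genes differed by more than 2-fold, 22 higher and 59 lower. In summed counts, fewer expressing cells and less RNA per cell cannot be told apart. The number of calls depended on single libraries: 164 genes were called without HFD 2 and 220 without ND 1. The direction in which most calls lay depended on the members used: 198 genes were called higher and 179 lower without doublet calls, 557 and 436 with the gate at 10 per 10000 UMIs, and 577 and 451 without the members richest in germ-cell transcripts. DESeq2 called 86 of the genes, and 42 of the 85 genes followed across the settings that it gave an adjusted p lost their call, so its calls are given with each list. The lists below were chosen with earlier results of these data known, so their counts of calls are descriptions. They are to be read beside the 1.13% called higher and 1.64% called lower over all tested genes.

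Of the 12 tested genes of steroid hormone synthesis outside the gate, 6 were called lower and 2 higher, with a median log2 change of -0.30. Star, which delivers cholesterol to the mitochondria, stood at 989 and 908 CPM in HFD 1 and HFD 2 and at 1662 and 1486 in ND 1 and ND 2. Its log2 change was -0.73 (SE 0.085, adjusted p = 3.11e-09). At an equal depth of 4616 UMIs per member, 85.0% and 86.9% of HFD members and 96.4% and 97.7% of ND members had a Star UMI, against 2.61% to 2.87% of kept cells with no UMI of any gate gene. Star (chr8:25806555-25815982, plus strand, GRCm38) was thus lower both in the share of members and in the summed level in each HFD library.

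Hsd3b6 stood at 1384 and 1443 CPM in HFD 1 and HFD 2 and at 1877 and 1727 in ND (log2 change -0.35, adjusted p = 0.00705). Fdx1, the ferredoxin that gives electrons to mitochondrial P450 enzymes, changed by -0.38 and Por, the reductase of microsomal P450 enzymes, by -0.57. Hsd17b7, which acts in estradiol formation and in cholesterol synthesis, stood at 41.1 and 43.9 CPM in HFD and at 76.0 and 72.9 in ND (log2 change -0.81, adjusted p = 7.37e-05). Srd5a1, a steroid 5-alpha-reductase, changed by -1.51, but in HFD libraries its share of members with a UMI at equal depth (2.80% and 1.69%) lay under the 4.01% to 4.95% of cells without gate genes. Hsd3b6 was not called without ND 1 (-0.29, adjusted p = 0.128) or without doublet calls (-0.43, 0.0745). Without HFD 2 the calls of Fdx1 (adjusted p = 0.0603) and Por (0.289) were lost, without ND 1 likewise (0.0608 and 0.0655), and that of Srd5a1 was lost without ND 2 (0.0609). Star, Hsd17b7, Cyp21a1 and Sult1e1 kept their calls whichever library was left out. DESeq2 called 2 higher and 4 lower, not Por or Srd5a1. Hsd17b3, Cyb5a, Fdxr and Tspo were not called, and Hsd17b3 changed by -0.26.

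Cyp21a1 encodes steroid 21-hydroxylase, known for mineralocorticoid and glucocorticoid synthesis in the adrenal cortex. It stood at 36.6 and 32.5 CPM in HFD 1 and HFD 2 and at 5.60 and 6.60 in ND 1 and ND 2, a 5.60-fold difference (log2 change 2.48, SE 0.248, adjusted p = 1.70e-11). The UMIs came from few members: 34, 41, 15 and 15 members of HFD 1, HFD 2, ND 1 and ND 2 had any, and 14 of the 73 UMIs of HFD 1 came from 1 member. At equal depth 11.2% and 13.6% of HFD members and 2.96% and 3.77% of ND members had a UMI, and 0.251% to 0.342% of cells without gate genes did. Cyp21a1 lies at chr17:34801348-34804561 (minus strand, GRCm38), and none of the 91-base windows in the last 300 bases of its transcript occurred in the annotated transcript of its pseudogene, Cyp21a2-ps. Sult1e1, the estrogen sulfotransferase, was the other steroid gene higher in HFD, at 661 and 521 CPM against 384 and 385 (log2 change 0.62, adjusted p = 1.46e-06).

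Of 20 listed cholesterol synthesis genes, all tested, 10 were called lower in HFD members and none higher. All 20 had a log2 change below 0, with a median log2 change of -0.38 against -0.0048 over all tested genes. Insig1, which holds the complex of SCAP and SREBP in the endoplasmic reticulum when sterols are plentiful, stood at 34.1 and 30.7 CPM in HFD 1 and HFD 2 and at 77.4 and 74.9 in ND 1 and ND 2. Its log2 change of -1.24 (SE 0.149, adjusted p = 9.02e-09) was the lowest of the pathway. Hmgcs1, which makes HMG-CoA, stood at 271 and 259 CPM in HFD and at 393 and 371 in ND (log2 change -0.53, adjusted p = 3.08e-05).

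Other called genes of the pathway were Mvd and Idi1 of the mevalonate steps (-0.81 and -0.54), the lanosterol synthase Lss (-0.71), and the sterol-processing enzymes Cyp51 (-0.51), Sc5d (-0.50), Dhcr7 (-0.48) and Msmo1 (-0.43). At equal depth 29.9% and 31.8% of HFD members had an Idi1 UMI, near the 28.5% and 27.8% of cells without gate genes. In ND 42.0% and 45.5% of members had one, against 23.9% and 24.1% of such cells. In none of the 10 called genes did the diets overlap, which also held for 43.9% of all tested genes. By DESeq2 5 of the 10 were called, and Mvd, Idi1, Lss, Sc5d and Dhcr7 were not. Between 5 and 12 of the 20 genes were called lower under the alternatives that ask for any change, with 5 without HFD 2 (Mvd, Idi1, Lss, Msmo1 and Dhcr7 lost) and 7 without ND 1 (Mvd, Lss and Dhcr7 lost, the smallest of their adjusted p being 0.117).

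Of 14 tested genes of cholesterol uptake and storage, 4 were called lower and none higher, with a median of -0.20. Without doublet calls 3 were called, and by DESeq2 1, Soat1. Soat1, which forms cholesterol esters, stood at 159 and 160 CPM in HFD and at 250 and 232 in ND (log2 change -0.59, adjusted p = 1.63e-05), and it kept its call whichever library was left out. The lysosomal cholesterol carrier Npc2 changed by -0.38 and the cytosolic carrier Stard4 by -0.75. Both calls rested on single libraries: Npc2 changed by -0.22 without HFD 2 (adjusted p = 0.527) and was lost without ND 1 (0.224), and Stard4 was lost without HFD 1 (0.130).

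In fatty acid metabolism 7 of 34 tested genes were called lower and 1 higher, with a median of -0.02. The lower ones included the desaturases Scd1 (-0.43), Scd2 (-0.43) and Fads1 (-0.50), the elongase Elovl6 (-0.67), the acyl-CoA synthetase Acsl4 (-0.87) and Cpt1a (-0.62), an enzyme of fatty acid oxidation. Scd2 stood at 574 and 574 CPM in HFD 1 and HFD 2 and at 795 and 748 in ND 1 and ND 2 (adjusted p = 5.07e-04), and Fads1 at 358 and 345 against 509 and 481 (adjusted p = 6.31e-05). Scd2 and Fads1 were called whichever library was left out, and these 2 were the genes of the list called by DESeq2. Scd1 was lost without HFD 2 (0.198) or ND 1 (0.0542), Elovl6 without HFD 1, HFD 2 or ND 1 (0.0979, 0.0779 and 0.302), Acsl4 without HFD 1 or ND 1 (0.146 and 0.0980) and Cpt1a without HFD 2 (0.0545). Angptl4, a secreted inhibitor of lipoprotein lipase, was the higher gene, at 91.7 and 83.3 CPM against 59.2 and 52.8 (log2 change 0.64, adjusted p = 8.05e-04). Without doublet calls its adjusted p was 0.0602.

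**Figure D2:**
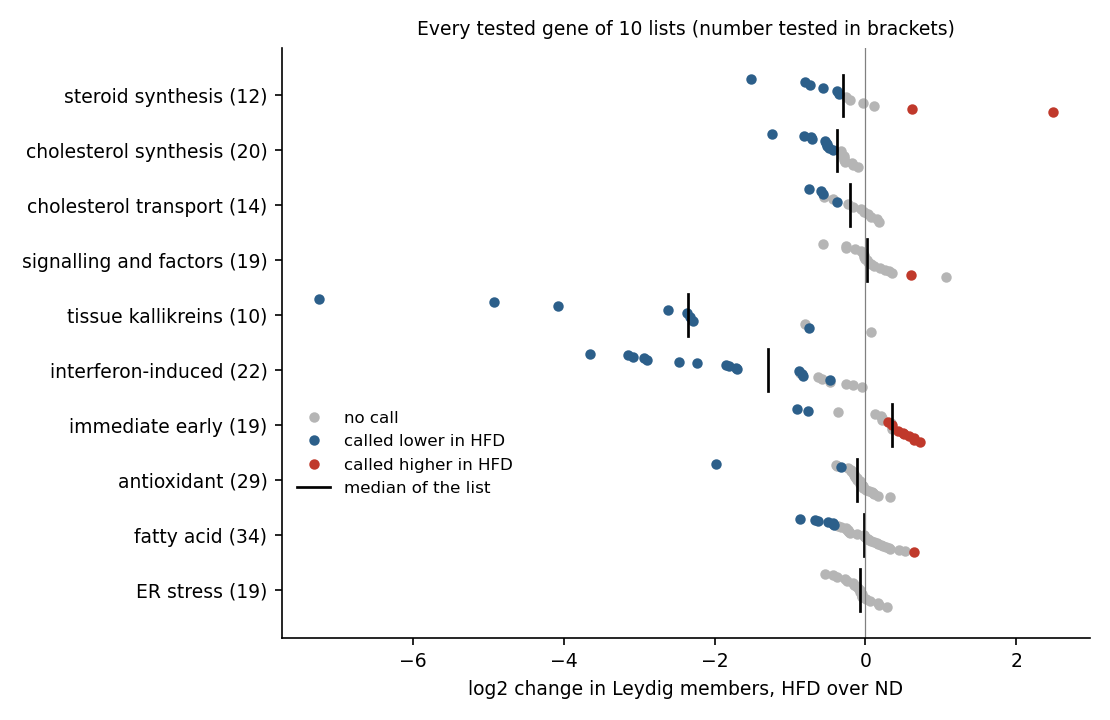
Log2 change of HFD over ND in Leydig members for every tested gene of 10 lists, 1 point a gene, red where called higher, blue where called lower and grey where not called, with a black bar at the median of each list. All 20 cholesterol synthesis genes lie below 0, the kallikrein and interferon-induced medians lie at -2.35 and -1.29, and the immediate early median lies at 0.35.

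Tissue kallikreins are a family of secreted serine proteases that is expanded in the mouse. Of 14 listed genes 10 were tested, 8 were called lower and none higher, with a median log2 change of -2.35. Over all tested genes 1.64% were called lower. Because the list was chosen with earlier results of these data known, its count of calls is a description. Klk1 and Klk1b1, with 1 and 0 UMIs in HFD members, passed the filter on low counts only through ND. The sign of their change was therefore fixed by the filter. Klk1b21 stood at 77.2 and 69.5 CPM in HFD 1 and HFD 2 and at 391 and 367 in ND 1 and ND 2, 5.17-fold higher in ND (log2 change -2.37, SE 0.105, adjusted p = 6.55e-27). Klk1b22 stood at 6.01 and 4.58 CPM against 98.1 and 81.5 (log2 change -4.08, SE 0.220, adjusted p = 4.61e-23). Every HFD value of these genes lay several-fold under every ND value.

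Klk1b24 stood at 88.7 and 81.0 CPM in HFD and at 432 and 393 in ND (-2.28), Klk1b27 at 52.6 and 47.6 against 273 and 230 (-2.33), and Klk1b16 at 6.51 and 11.4 against 53.6 and 57.8 (-2.61). Klk1b1 had no UMI in HFD members and 44 in ND members, at least 10.3-fold lower in HFD when 3 counts over the HFD group are taken as the limit. Klk1 had 1 UMI against 51, which after scaling by the summed UMIs is a ratio of 35.8 for ND over HFD (95% interval 6.14 to 1441, counting error only). At equal depth 3.85% and 3.77% of ND members had a Klk1 UMI and 0% and 0.424% of HFD members. Of cells without gate genes 2.17% to 2.96% had one, below the ND members and above the HFD members. How much of the Klk1 RNA in members came from such cells was not tested. DESeq2 called 5 kallikreins, not Klk1b8, and gave no adjusted p for Klk1 and Klk1b1. Klk1b8 was called lower (-0.75), but cells without gate genes had a Klk1b8 UMI more often (21.8% to 23.7%) than members did at equal depth (4.66% to 11.9%). Its RNA in members therefore cannot be told apart from RNA of such cells carried into members. The call of Klk1b8 was lost without HFD 2, without ND 2 or without doublet calls (edgeR adjusted p = 0.0528 for the last).

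Summed over the family, kallikreins gave 267 and 248 CPM in HFD 1 and HFD 2 and 1287 and 1191 in ND 1 and ND 2. In HFD, 59.3% and 58.1% of members had at least 1 kallikrein UMI, and in ND 88.2% and 84.1% did. At equal depth, 24.3% and 25.8% of HFD members and 68.3% and 64.6% of ND members had a Klk1b21 UMI, against 0.0773% to 0.634% of cells without gate genes. Both fewer members with a kallikrein UMI and a lower sum were thus seen in each HFD library. Klk1b21 was also lower within the larger groups by strength of the gate genes. It stood at 83.3 and 76.7 CPM in HFD against 404 and 405 in ND in the group of 100 to 300. In the strongest group it stood at 120 and 145 CPM in HFD and at 536 and 652 in ND. The weaker groups gave 6.08 to 23.4 CPM in HFD and 61.0 to 117 in ND. They held few, shallow members (123 and 184), with 20.3% and 45.7% doublet calls. The 7 called Klk1b genes lie between positions 43950664 and 44192455 of chromosome 7 (GRCm38). In the last 300 bases of their transcripts no 91-base window was shared with another family member except 3.81% of the windows of Klk1b21 and Klk1b24, so reads from the 3′ ends could mostly be told apart. How the authors' counting treated shared reads is not given in the sources used here.

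Interferon-induced genes, which cells raise in answer to interferon and to viral RNA, were the other group with large decreases. Of 26 listed genes 22 were tested, all 22 had a log2 change below 0, and 15 were called lower and none higher, with a median of -1.29. Ifit3, Ifit3b, Usp18, Rtp4 and Oasl2 passed the filter on low counts only through ND. They had 2 to 8 UMIs in each HFD library and 40 to 96 in each ND library. The sign of their change was therefore fixed by the filter. The 15 calls and the median include these genes, so both are descriptions. Over all tested genes 1.64% were called lower. Under the other settings that ask for any change, 7 to 18 of the list were called lower. Promoters of 4 genes are shown because these genes fell together in HFD members and hold the motif searched for their list: the core of the interferon-stimulated response element, GAAA, any 2 bases and GAAA again, in Isg15, Ifit3 and Bst2, and that of the sterol regulatory element, TCACNCCAC, in Hmgcs1. Sequences are from RefSeq on GRCm38.p6, read 5′ to 3′ on the strand of the gene from the bases before the transcription start, with matches on either strand in capitals. The stretches are chr4:156200819-156200968 on the minus strand (Isg15), chr19:34583279-34583528 on the plus strand (Ifit3), chr8:71537473-71537622 on the minus strand (Bst2) and chr13:119690201-119690350 on the plus strand (Hmgcs1).
Isg15: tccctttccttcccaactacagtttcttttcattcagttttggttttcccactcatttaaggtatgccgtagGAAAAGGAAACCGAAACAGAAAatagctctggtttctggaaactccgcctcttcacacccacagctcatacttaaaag
Ifit3: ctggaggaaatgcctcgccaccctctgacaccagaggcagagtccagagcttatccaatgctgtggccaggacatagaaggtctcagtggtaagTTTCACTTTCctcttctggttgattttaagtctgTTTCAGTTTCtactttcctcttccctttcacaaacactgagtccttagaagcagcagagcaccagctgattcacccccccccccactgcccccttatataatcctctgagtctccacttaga
Bst2: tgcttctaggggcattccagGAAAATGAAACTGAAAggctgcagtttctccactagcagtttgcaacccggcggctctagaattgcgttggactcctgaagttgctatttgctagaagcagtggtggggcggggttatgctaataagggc
Hmgcs1: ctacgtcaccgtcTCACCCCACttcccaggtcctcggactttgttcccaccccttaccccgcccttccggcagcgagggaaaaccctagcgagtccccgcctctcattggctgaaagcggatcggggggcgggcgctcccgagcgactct

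In the 250 bases before the start, the core of GAAA, any 2 bases and GAAA occurred on either strand in 11 of the 20 interferon-induced genes found in the promoter table and in 3.46% of the 27025 genes of that table. The 11 were Ifit1, Ifit3, Ifit3b, Isg15, Oas1a, Rsad2, Stat2, Bst2, Gbp2, Gbp3 and Gbp7. Matches overlap in Isg15, which holds 3, and in Bst2, which holds 2. TCACNCCAC occurred in 1 of 15 cholesterol synthesis genes found (Hmgcs1) and in 1.22% of all genes. CAAGGNCA, the core read by Nr5a1, occurred in none of 17 genes found among the steroid genes and the gate genes and in 6.33% of all. TGACGTCA, the cAMP response element, occurred in 2 of 17 immediate early genes (Dusp1 and Btg2) and in 1.77% of all. A match is a description of these letters and no evidence of binding.

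Ifit3, an antiviral effector that binds other Ifit proteins, stood at 2.50 and 1.83 CPM in HFD 1 and HFD 2 and at 27.7 and 27.4 in ND 1 and ND 2 (log2 change -3.65, SE 0.345). Because Ifit3 passed the filter on low counts only through ND, its values are a description. Isg15, a ubiquitin-like protein, stood at 10.5 and 0.915 CPM against 17.5 and 22.4 (log2 change -1.85), and the HFD libraries differed by more than 10-fold. With 21 UMIs in HFD 1 and 2 in HFD 2, Isg15 too passed the filter through ND. Bst2, a membrane protein that tethers virions, stood at 150 and 139 CPM against 204 and 195 (log2 change -0.47, adjusted p = 0.00165). Without HFD 2 the calls of Isg15 (-0.93, adjusted p = 0.163) and Bst2 (-0.41, 0.0994) were lost.

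Oasl2, Rtp4, Usp18, Ifit3b, Ifit1, Xaf1, Rsad2, Irf7 and Stat2 were called lower too, with log2 changes from -3.14 (Oasl2) to -0.88 (Stat2). Of these, Oasl2, Rtp4, Usp18 and Ifit3b passed the filter on low counts only through ND. Ifi27l2a (-0.83) and Ifih1 (-0.84) were called, and neither kept its call with every library: Ifi27l2a was lost without HFD 2 (adjusted p = 0.273), ND 2 (0.166) or doublet calls (0.0590), and Ifih1 without any 1 of the 4 (0.0722 to 0.285). DESeq2 called 9 of the list, not Isg15, Bst2, Rsad2, Stat2, Ifi27l2a or Ifih1. Among the 10 strongest decreases of at least 20 CPM over all genes were also Ifitm3, which blocks viral entry (37.1 and 39.3 against 122 and 105 CPM, -1.56), and Trim30a (16.0 and 13.7 against 45.5 and 41.3 CPM, -1.54).

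Also among the 10 strongest decreases were Gpx3 and Cela3b. Gpx3, the secreted glutathione peroxidase, stood at 9.02 and 10.5 CPM in HFD 1 and HFD 2 and at 43.4 and 34.7 in ND 1 and ND 2 (log2 change -1.98, SE 0.227, adjusted p = 1.97e-09). Cela3b, a pancreatic-type elastase, stood at 9.52 and 11.9 CPM against 34.3 and 33.7 (log2 change -1.65, adjusted p = 2.71e-07). The rule that named these genes required no overlap of the diets. Both calls held whichever library was left out.

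**Figure D3:**
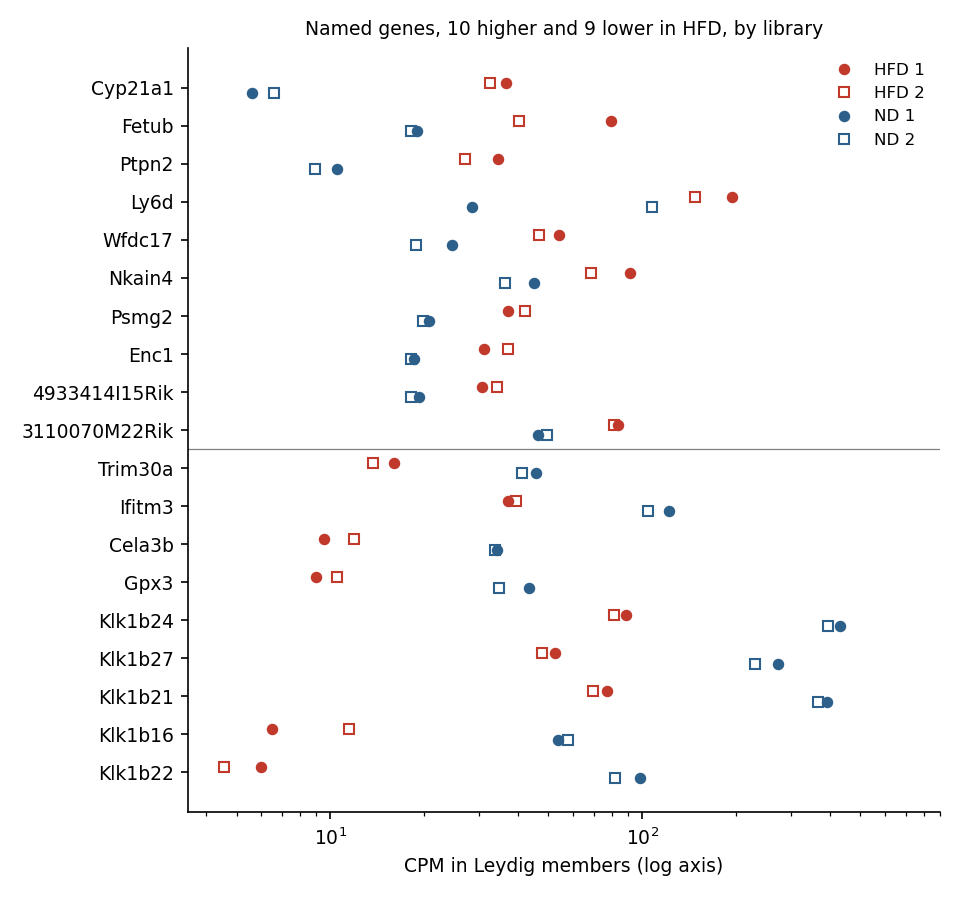
CPM of 10 named genes higher and 9 lower in HFD in Leydig members, on a log axis, with 1 point per library (circles replicate 1, squares replicate 2, red HFD, blue ND). The HFD and ND points are apart for each of the 19 genes because the rule that named them required it. Ly6d has the widest spread within a diet (28.4 and 108 CPM in ND).

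Among called genes of at least 20 CPM that were higher in HFD without overlap of the diets, Cyp21a1 had the largest change and Fetub the next. Fetub, which encodes fetuin-B, a protease inhibitor, stood at 79.2 and 40.3 CPM in HFD 1 and HFD 2 and at 18.9 and 18.2 in ND 1 and ND 2 (log2 change 1.67, SE 0.199, adjusted p = 6.60e-09). Ly6d, a membrane-anchored Ly6 protein, stood at 194 and 147 CPM against 28.4 and 108 (log2 change 1.31). Its UMIs came from 45 and 49 members of HFD 1 and HFD 2 and from 28 and 31 of ND 1 and ND 2. In each HFD library at least 94.7% of them lay in 10% of the members. The naming rule required diets without overlap, yet for Ly6d ND 1 and ND 2 differed more than ND 2 and HFD 2. The size of the change of Ly6d depended on single ND libraries: its log2 change was 0.66 without ND 1 (adjusted p = 1.27e-04) and 2.58 without ND 2, and DESeq2 did not call it (1.33, adjusted p = 1.00). DESeq2 did not call Fetub (adjusted p = 0.0823), Psmg2, Enc1 or 4933414I15Rik either, and it called the other 5 of the 10 strongest increases.

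Nkain4, a partner of the sodium pump, stood at 91.7 and 68.6 CPM in HFD and at 44.8 and 36.3 in ND (log2 change 0.98, adjusted p = 2.52e-06), and Enc1, an actin-binding kelch protein, at 31.1 and 37.1 against 18.6 and 18.2 (log2 change 0.90). Enc1 was not called without HFD 2 (adjusted p = 0.119) or without doublet calls (0.0501). Wfdc17, a secreted protein known from macrophages, stood at 54.1 and 46.7 CPM against 24.5 and 18.8 (log2 change 1.22). Wfdc17 UMIs came from 12, 24, 18 and 21 members of HFD 1, HFD 2, ND 1 and ND 2. Without the 47 members that met the macrophage gate the log2 change of Wfdc17 was 0.60 (adjusted p = 0.566).

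Ptpn2, Psmg2, 4933414I15Rik and 3110070M22Rik completed the 10 strongest increases under the same limits, with log2 changes of 1.66, 0.97, 0.80 and 0.78. Ptpn2, a phosphatase that acts on the JAK and STAT pathway, stood at 34.6 and 27.0 CPM in HFD and at 10.5 and 8.91 in ND. For each of the 4 genes, members had a UMI at equal depth no more often than cells without gate genes of the same library. For Ptpn2 the shares were 14.5%, 9.75%, 5.03% and 2.90% in members of HFD 1, HFD 2, ND 1 and ND 2. In those other cells they were 19.6%, 19.1%, 9.37% and 9.37%. RNA of such cells carried into members cannot be told apart from RNA made in members. The call of 4933414I15Rik was lost without HFD 2 (adjusted p = 0.164) or ND 2 (0.0692).

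Immediate early genes, which cells induce within minutes of a stimulus and which tissue dissociation is known to raise, were called higher in HFD members for 9 of 19 tested genes and lower for 2, with a median log2 change of 0.35. Over all tested genes 1.13% were called higher and 1.64% lower. Fos stood at 404 and 382 CPM in HFD 1 and HFD 2 and at 327 and 254 in ND 1 and ND 2 (log2 change 0.44, adjusted p = 0.00178). Junb stood at 243 and 228 CPM against 167 and 167 (log2 change 0.49, adjusted p = 3.82e-04). Egr1, Fosb, Jun, Jund, Ier2, Ier3 and Klf6 were the other higher genes, with changes from 0.30 (Jun) to 0.72 (Fosb), and the heat shock genes Hspa1a (-0.91) and Hspa1b (-0.76) were lower.

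DESeq2 called 1 of these genes, Junb. None of the 19 genes was called higher when doublet calls were left out. There 8 were higher at an unadjusted edgeR p under 0.05, and the median was 0.26. In the main fit, which kept doublet calls, 1874 of all 13063 tested genes had such a p in either direction. Doublet calls were 3.51% of members in HFD 1 and 11.6% to 15.3% in the other libraries, and their part in the result was not tested. The count of higher genes was 1 without ND 2, 4 without HFD 1 and 4 without the members richest in germ-cell transcripts. Fos changed by 0.26 without ND 2 (adjusted p = 0.243). Hspa1a kept its call whichever library was left out, and Hspa1b lost it without HFD 1 (0.362) or ND 2 (0.353).

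Other groups gave few calls. Among 19 transcription factors and components of gonadotropin signalling, Gata6 was called higher (0.60, adjusted p = 0.0488) and none lower, and Nr5a1, the steroidogenic factor, changed by 0.02. Gata6 was lost without HFD 2 (0.528), ND 1 (0.230), ND 2 (0.0840) or doublet calls (0.239). Among 16 other products and receptors, Vcam1, an adhesion receptor for leukocytes, was lower at 1354 and 1180 CPM in HFD against 1746 and 1719 in ND (log2 change -0.45, adjusted p = 2.56e-04). Igf1r, the receptor of insulin-like growth factor, was lower at 82.7 and 90.1 CPM against 144 and 142 (-0.72, adjusted p = 5.71e-06), Fetub was the higher gene of this list, and Prlr changed by -0.07 without a call.

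Of 29 antioxidant genes Gpx3 and the glutathione transferase Gsta3 (-0.32) were lower and none higher. Of 13 mitochondrially encoded subunits mt-Nd1 (-0.32) was lower and none higher, with a median of -0.22. None of 19 genes of endoplasmic reticulum stress was called by edgeR or by DESeq2, with a median of -0.08. By edgeR 5 of them had an unadjusted p under 0.05, as did 1874 of all 13063 tested genes. Of 7 tested genes of inflammation the chemokine Cxcl1 was higher (0.62, adjusted p = 0.00304). DESeq2 did not call Gata6, Fetub, Gsta3 or Cxcl1. Gsta3 was lost without HFD 2 (0.275) or ND 1 (0.0980), mt-Nd1 without ND 1 (0.0783), ND 2 (0.0608) or doublet calls (0.0804), and Cxcl1 without HFD 1 (0.0581), ND 2 (0.101) or doublet calls (0.0727).

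Of the germ-cell markers carried by members, none of 8 spermatid genes was called by edgeR (none at an unadjusted p under 0.05, median -0.13), and 3 of 8 spermatocyte genes were called higher: Hspa2 (0.31), Ldhc (0.29) and Aurka (0.66). The summed spermatocyte markers stood at 4858 and 4788 CPM in HFD members and at 3827 and 4106 in ND members, and in the cells without gate genes at 10940 and 11150 against 10270 and 10200. Hspa2 was lost without HFD 1 (adjusted p = 0.343), without ND 1 (0.342) or with DESeq2 (0.249), and Ldhc without HFD 1 (0.129), ND 1 (0.223) or ND 2 (0.0779). None of 6 macrophage markers was called by edgeR, with a median of 0.40. At an unadjusted p under 0.05 there were 3 of them, against 1874 of all 13063 tested genes. Of 3 tested fibroblast markers the matrix proteoglycan Dcn was lower (14.0 and 19.2 CPM in HFD, 39.9 and 44.9 in ND, log2 change -1.34).

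To see which changes of members differed from those of the rest of the testis, the diet change in members was compared with that in the 56217 other kept cells in 1 edgeR fit with a term for each library. The difference was called for 272 of 24775 genes (1.1%), 146 with a higher change in members (0.589%) and 126 with a lower one (0.509%). Leaving out a library left 33 to 89 calls (33 without HFD 2, 72 without HFD 1, 78 without ND 2 and 89 without ND 1). The split was less even under other settings, with 330 higher and 100 lower without doublet calls, 561 and 191 without the members richest in germ-cell transcripts, and 279 and 111 among genes of at least 10 UMIs in every library. Eif2ak2, the RNA-activated kinase of the interferon response, changed by -0.92 in members and 0.31 in the other cells, a difference of -1.22 (adjusted p = 2.45e-08).

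Interferon-induced genes were lower in HFD outside the Leydig members as well. In the other cells 19 of the 26 genes were called lower, where 16.6% of 25355 tested genes were called lower, and their median change there was -1.24. The difference between members and other cells was called for 2 of the 26, both lower in members, among them Xaf1 (-2.23 in members and -0.53 in the other cells, difference -1.69, adjusted p = 0.0107). Of 13 kallikreins tested for the difference, 3 were called, all lower in members. Klk1b16 changed by -2.61 in members and -0.14 in other cells (difference -2.46, adjusted p = 6.31e-12). The others called were Klk1 and Klk1b1, with 1 and 0 UMIs in HFD members. In the other cells 5 kallikreins were called lower themselves, and Klk1b21 changed by -2.49 there against -2.37 in members (difference 0.13, adjusted p = 0.972). Outside the members Klk1b21 had 18 and 20 UMIs under HFD against 80 and 122 under ND. It averaged 0.419 CPM there against 223 in members, a 531-fold ratio near the 556-fold ratio of the summed gate genes. RNA of Leydig cells outside the gate or carried into other droplets cannot be told apart from RNA made by the other cells. The similar change of Klk1b21 therefore does not describe kallikreins outside Leydig cells.

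**Figure D4:**
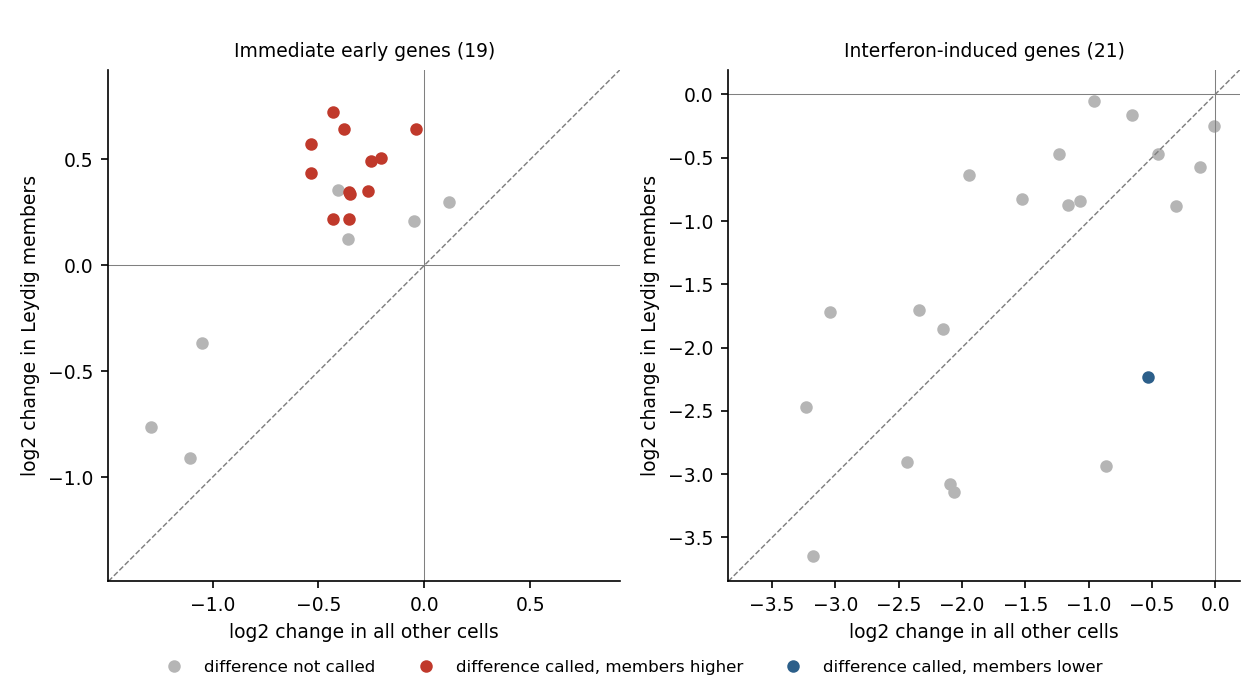
Log2 change of HFD over ND in all other kept cells (x axis) against that in Leydig members (y axis) for immediate early genes (left, 19) and interferon-induced genes with a value in both (right, 21 shown), 1 point a gene, coloured where the difference was called; the dashed line marks equal change. The called immediate early genes (12 of 19) lie above the line, and the called interferon-induced gene shown, Xaf1, lies below it.

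Steroid and cholesterol genes differed in part. The difference was called higher for Cyp21a1 (2.48, adjusted p = 1.30e-06) and lower for Star (-0.47, adjusted p = 0.00110), Fdx1 (-0.47), Srd5a1 (-1.49) and Cyb5a (-0.50) among 15 steroid genes. Among 20 cholesterol synthesis genes it was called lower for Insig1 (-0.98), Mvd (-0.79), Sc5d (-0.67) and Idi1 (-0.53), and in the other cells 8 of the 20 were called lower themselves, with a median of -0.13. For Srd5a1 and Idi1 the shares of HFD members with a UMI lay under or near those of cells without gate genes, as given above. With a library left out, the calls among steroid genes were 1 higher and 1 to 3 lower (1 without HFD 2), and 1 or 2 of the cholesterol synthesis genes were called.

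For 12 of 19 immediate early genes the change was called higher in members than in the rest of the testis. In the other cells 15 of the 19 were called lower, with a median of -0.36. The number of differences called was 8 without doublet calls, 4 without HFD 1, 5 without HFD 2 and 5 without ND 2. For macrophage markers, 4 of 6 differences were called higher in members; their median change was 0.40 in members and -0.47 in other cells.

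Against the 613 cells that met the gate on Sertoli markers and were no members, the difference of change was called for 45 of 12116 genes (0.371%), 19 higher (0.157%) and 26 lower (0.215%) in members. The number of calls was 4 without doublet calls and 6, 7, 26 and 78 without ND 1, ND 2, HFD 1 and HFD 2. Klk1b8 (-1.49, adjusted p = 0.00164) had the smallest adjusted p of the genes named for this comparison, and its call was lost without ND 2 (adjusted p = 0.181). Klk1b8 stood at 22.1 and 16.0 CPM in HFD members and at 29.9 and 34.0 in ND members. In the Sertoli-gated cells Klk1b8 was higher, at 195 and 171 CPM under HFD and 116 and 104 under ND. As said above, its RNA in members cannot be told apart from RNA carried in from other cells. Of 8 spermatid markers 5 were called: Prm1 (-0.61), Prm2 (-0.62), Tnp1 (-0.57) and Tnp2 (-0.45) were lower in members and Smcp (0.51) was higher. Their changes in members were -0.15 to -0.03 without a call. Of 10 kallikreins Klk1b8 and Klk1 were called lower, and of 19 immediate early genes Fos and Junb were called higher. Of 12 steroid and 20 cholesterol synthesis genes and 21 interferon-induced genes tested, none was called in this comparison by edgeR. At an unadjusted p under 0.05 there were 1, 2 and 5 of them, against 828 of all 12116 genes.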

How the data were processed

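UMIs were counted per gene and cell barcode in 4 libraries of dissociated mouse testis. The values are raw counts as deposited by the authors in 10x matrices, without normalization per the file headers, whose software version is 3.0.2. The genome build is mm10 per the submitters' processing notes, and the aligner and annotation are not given in the sources used here. Gene coordinates are from GENCODE M21 (GRCm38) and promoters from RefSeq (GRCm38.p6).

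Kept barcodes had 200 genes or more and no more than 20% of UMIs from mitochondrial genes. The filter removed 18, 13, 42 and 37 barcodes (HFD 1, HFD 2, ND 1, ND 2). Doublets were called with Scrublet (scanpy 1.11.5, expected rate 0.1) and kept. Counts of members were summed per library and tested with edgeR 4.0.16 (filterByExpr, TMM, quasi-likelihood test, R 4.3.3) with Benjamini-Hochberg adjustment over all tested genes, the 6 gate genes left out, and a threshold of 0.05. Differences of change were tested as the interaction of cell set and diet with a library term. DESeq2 1.42.0, limma 3.58.1 on log2(CPM + 1) and other gates, filters and scalings served as alternatives, among them leaving out each library. The gate at 100 per 10000 UMIs and leaving out members in the macrophage gate were chosen after the data were seen.

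The named genes were the 10 highest and 10 lowest called genes of at least 20 CPM without overlap of the diets, the called genes of the lists, and, for each difference, the 5 highest and 5 lowest of at least 20 CPM in members. Some genes that this rule names are not reported here. The members and the lists were chosen with earlier results of these data known. Shares with a UMI were compared after thinning members to 4616 UMIs, which left out 377 shallower members (71, 77, 110 and 119 in HFD 1, HFD 2, ND 1 and ND 2); the comparison cells with no gate-gene UMI were not thinned and had median depths of 4341 to 4976 UMIs. Unthinned shares of members with a Star UMI were 76.8%, 83.1%, 92.9% and 93.1% in that order, and with a Klk1b21 UMI 27.0%, 27.5%, 69.9% and 60.1%. For Cyp21a1 they were 11.9%, 13.1%, 3.35% and 3.23%, and for Ptpn2 19.3%, 16.0%, 6.47% and 5.39%. Intervals are exact 95% binomial intervals and cover counting error only.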

Additional observations from a re-analysis of the deposited data

Results flagged for a closer look

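In 18 named genes, of the 272 and 45 called against the 2 sets of cells, the diet change in Leydig members differed from that in another set of cells by a test of the difference itself (edgeR interaction, adjusted p under 0.05). Against all other kept cells, the change was higher in members for Wfdc17 by 1.71, Enc1 by 1.61, Nkain4 by 1.22, C1qa by 1.19 and Fosb by 1.18 on the log2 scale. It was lower for Klk1b16 (-2.46), Gpx3 (-1.56), Eif2ak2 (-1.22) and Slc7a2 (-1.22). Slc7a2, a carrier of cationic amino acids, changed by -0.51 in members and by 0.71 in the other cells, and C1qa, a complement gene of macrophages, by 0.41 and -0.77. Klk1b16 and Eif2ak2 were called whichever library was left out. Enc1 was lost without HFD 2 (adjusted p = 0.324) or ND 2 (0.158), Nkain4 without HFD 1 (0.145), HFD 2 (0.0773) or ND 2 (0.175), and C1qa without HFD 2 (0.235) or ND 2 (0.0880). In thinned members Nkain4 (1.07, adjusted p = 0.113) and C1qa (0.85, 0.0636) were not called. Fosb was lost without HFD 1 (0.0530), HFD 2 (0.0575) or ND 2 (0.120), Gpx3 without HFD 1 (0.187) or HFD 2 (0.0627), and Slc7a2 without HFD 2 (0.184). Without the members that met the macrophage gate the difference was 1.09 for Wfdc17 (adjusted p = 0.364) and 1.17 for C1qa (0.0774).

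Against Sertoli-gated cells, the change was higher in members for Cd74 (3.48), Fos (3.14), Man2a2 (2.35) and Junb (2.01) and lower for Ccl8 (-3.82), Klk1b8 (-1.49), Hypm (-0.90), 1700016P04Rik (-0.857) and Sh3rf2 (-0.806). In members Hypm, 1700016P04Rik and Sh3rf2 changed by -0.13, -0.17 and -0.16, and in the Sertoli-gated cells they were called higher in HFD, by 0.74, 0.67 and 0.63. Several rest on very few UMIs in the Sertoli-gated cells: Fos had 1 and 2 in HFD against 10 and 11 in ND, and Ccl8 32 and 2 against 0 and 2. For Cd74, the Sertoli-gated cells of HFD 1, HFD 2 and ND 1 held 2, 1 and 2 UMIs and those of ND 2 held 47, and without ND 2 its difference was -0.35. Ccl8 differed by -0.98 without HFD 1 and by -1.93 without ND 1. Without doublet calls 2 of the 9, Ccl8 and Klk1b8, were called, and in thinned members Man2a2, Hypm, 1700016P04Rik and Sh3rf2 were not called (adjusted p from 0.116 to 0.325). Each of the 9 lost its call in at least 1 library left out.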

How the results depend on the processing

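Of the 362 genes called between the diets in members, 325 to 362 were tested under each of the 20 alternatives (edgeR, DESeq2 or limma). None of those tested changed sign, and 43 to 362 were still called. The number of calls was 197 with a gate of 4 genes and 40 per 10000 UMIs, 993 with 3 genes and 10 per 10000, 1028 without the members richest in germ-cell transcripts, 86 with DESeq2 and 43 when a change beyond 1.5-fold was tested; leaving out a library gave 164 to 276. Differences from the other kept cells numbered 430 without doublet calls, 611 with the gate at 10 per 10000, 159 with it at 100, 162 in thinned members, 752 without germ-rich members and 148 without the library term, and 33 to 89 with a library left out. Differences from Sertoli-gated cells numbered 4 without doublet calls, 8 with the gate of 4 genes, 72 with the gate at 10 per 10000, 1 with it at 100 and 4 without the library term, and 6 to 78 with a library left out; the difference of Cd74 ran from -0.35 (without ND 2, the only reversal) to 4.76 (without ND 1). The log2 ratio of member shares was -0.59 with the gate of 4 genes, -0.44 at 10 per 10000, -0.64 at 100 and -0.60 for barcodes of at least 2000 UMIs, and -0.57 to -0.46 with a library left out. In each of these cases the cause was not tested.

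A replicate block by the numbers in the library names gave 625 calls in members, and all 362 genes were among them. The numbers share no stated animal or batch, and the correlation of the deviations of libraries of the same number was 0.0760 over 7152 genes. Depth limited genes of low level: the smallest library had 2026033 member UMIs, so 1 CPM stood for about 2 UMIs there.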
